A study of Mus musculus with 3 samples.

Results

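Spi1, Cebpa, Cebpb, Cebpd, Cebpe, Gfi1, Runx1, Myb and Maf are 9 transcription factors of monocyte, granulocyte and macrophage fate. They were taken as a list of names, and all 9 were among the 22238 genes listed in all 3 libraries. The libraries came from wild-type female C57BL/6J mice, 10 to 12 weeks old, in which experimental autoimmune encephalomyelitis (EAE), a mouse model of multiple sclerosis, was induced with MOG peptide in complete Freund's adjuvant and 250 ng of pertussis toxin. Cells were sorted at days 14 to 15. Bone marrow monocytes, for short marrow monocytes, were CD45+ CD11b+ Ly6Chi Ly6G- CD11c- cells from 13 mice of 2 experiments, purified first with a monocyte isolation kit and gated without CD64. Spinal cord monocytes, for short cord monocytes, were CD45+ CD11b+ CD64+ Ly6Chi Ly6G-, and the monocyte-derived antigen-presenting cells (APCs) differed from them in the gate by being Ly6Clow/-. Each spinal cord population was pooled from 18 mice of 3 experiments. All donors had EAE, and no healthy mouse was in the comparison. One label of the APC library names the bone marrow as its source, whereas its title and tissue label name the spinal cord, which is used here.

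There was 1 pooled library per population, so no difference has a replicate check and no p-value is given. The depth in estimated reads was 33280643 for marrow monocytes, 27283795 for cord monocytes and 28209589 for APCs. Levels are given in TPM, a share of transcripts that accounts for their length, rescaled to the same sum over the common genes. The APC values were made on another set of transcripts than those of both monocyte libraries. Each comparison with APCs, and each mean transcript length there, carries this difference, and its part was not tested. Their 95% Wilson intervals, like every interval here, cover counting error only. Fold changes are log2 ratios of reads after scaling for library depth, with a 98% interval. A gene is termed active where either library of a comparison put it over 3 TPM. An active gene was called higher or lower if the whole interval passed a 2-fold change. In bulk RNA, fewer cells of a type and less RNA per cell cannot be told apart.

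PU.1, the product of Spi1, and C/EBPα set up the myeloid program in progenitors, and both stay in use in mature monocytes. C/EBPβ takes over from C/EBPα when inflammation drives myelopoiesis and in activated macrophages, C/EBPδ is an acute-phase member of the family, and C/EBPε drives the late granule program of neutrophils. Gfi1 is a repressor that favors neutrophils over monocytes, Runx1 acts with its partner CBFβ from the blood stem cell onward, Myb keeps progenitors in cycle, and c-Maf, the product of Maf, belongs to the program of mature macrophages.

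Monocytes of the spinal cord kept Spi1 and Cebpa within a 2-fold change of the bone marrow, and differed in the other active factors. Cebpb, Runx1 and Maf were called higher, and Cebpd, Cebpe and Myb were called lower, out of 8 active members. Over all 10072 active genes, 13.8% were called higher and 10.7% lower. The median absolute log2 fold change was 1.63 over the 8 active members and 0.58 over all active genes. Counting error was the only error in these intervals. With an assumed coefficient of variation of 0.2 between libraries, Cebpb, Maf and Myb remained called, and with 0.4 only Myb did. Between APCs and cord monocytes, 0 of 7 active members were called, where 1.93% of 9734 active genes were called higher and 1.7% lower. There the median absolute log2 fold change was 0.24 for the members and 0.26 for all active genes. APCs against marrow monocytes gave the same 3 members higher and the same 3 lower, beside 14% higher and 11.8% lower of 10190 active genes. There Maf, Cebpe and Myb remained called with an assumed coefficient of variation of 0.2, and Cebpe and Myb with 0.4. This comparison shares a library with each of the others. The split of all calls moved with the scaling and with the calling rule. A 2-fold change of TPM, with 0.1 added and no interval, put 1391 genes higher and 2137 lower in cord against marrow monocytes. A plain 2-fold change of reads, also without an interval, put 1567 higher and 1442 lower. The interval rule on reads gave 1386 and 1073. The same 6 members were called in the same directions in all of these.

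**Figure D1:**
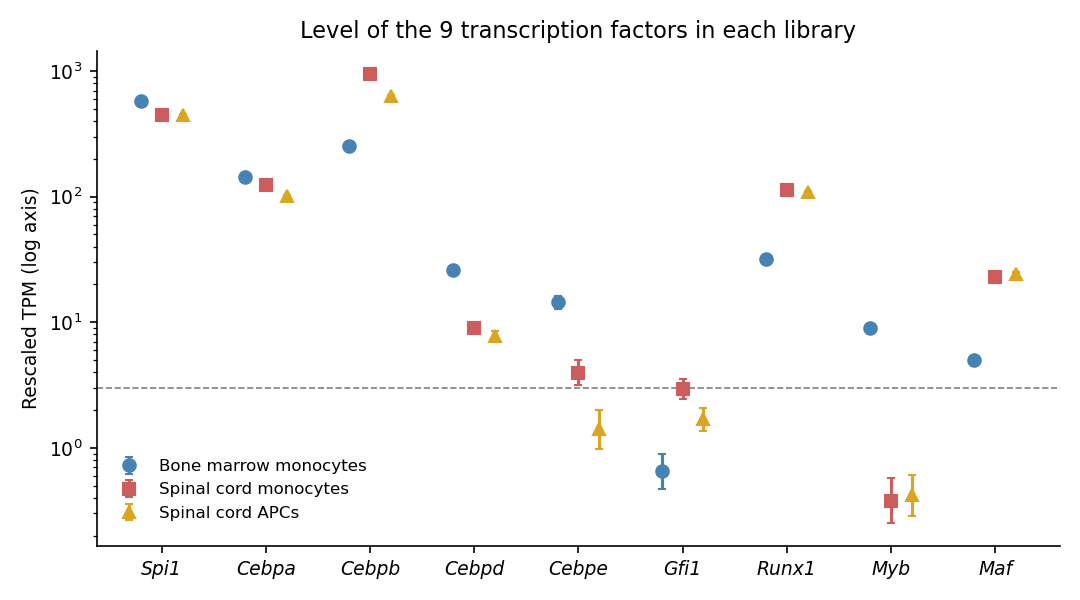
Rescaled TPM of each transcription factor (log axis) in marrow monocytes (circles), cord monocytes (squares) and APCs (triangles), with 95% Wilson intervals for counting error and a dashed line at 3 TPM. Cebpb, Runx1 and Maf lie higher in both spinal cord libraries, Cebpd, Cebpe and Myb lie lower, and Gfi1 lies under 3 TPM in all 3 libraries.

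In marrow monocytes the factors ranged from Spi1, above 98.8% of the common genes, to Gfi1, above 51.7%. Their order there from high to low was Spi1, Cebpb, Cebpa, Runx1, Cebpd, Cebpe, Myb, Maf and Gfi1. All neighbors in that order had intervals that stayed apart. In cord monocytes the order was Cebpb, Spi1, Cebpa, Runx1, Maf, Cebpd, Cebpe, Gfi1 and Myb, and the intervals of Cebpe and Gfi1 overlapped. In APCs Runx1 stood above Cebpa, at 109 against 101 TPM, and Gfi1 above Cebpe, the latter pair with overlapping intervals. Cebpb and Spi1 thus changed places between the tissues, and Maf and Myb did so too.

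Spi1 (GRCm38, chromosome 2, 91082390 to 91115756, plus strand) was the most abundant factor of the list in marrow monocytes, at 583 TPM (95% interval 572 to 594). It had 448 TPM in cord monocytes and 446 TPM in APCs, and the intervals of these 2 libraries overlapped. It ranked above 98.3% of the common genes in cord monocytes and above 98.5% in APCs. The log2 fold change from reads was 0.04 (98% interval -0.01 to 0.09) in cord against marrow monocytes, and -0.16 in APCs against cord monocytes. The direction depended on the scaling. With reads divided by effective length, which averages over the transcripts to which reads were assigned, these values became -0.14 and 0.08. The mean transcript length assigned to Spi1 was 1117, 1180 and 1095 bases in marrow monocytes, cord monocytes and APCs. Its full-length coding transcript in the annotation has 2034 bases, and 3 others have 402 to 613.

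Cebpa (chromosome 7, 35119293 to 35121928, plus strand), whose product is needed to form granulocyte-monocyte progenitors, had 144 TPM in marrow monocytes, 124 TPM in cord monocytes and 101 TPM in APCs. No pair of these intervals overlapped. The changes were small all the same, at 0.13 (98% interval 0.07 to 0.19) as log2 in cord against marrow monocytes and -0.28 (-0.34 to -0.21) in APCs against cord monocytes. Per length the first was 0.03, and with total reads as the scale it was -0.06. The level of Spi1 relative to Cebpa was 4.06 in marrow monocytes, 3.62 in cord monocytes and 4.43 in APCs, so this ratio stayed within a narrow range while Cebpb moved. The region before the Cebpa start (GRCm38.p6, chr7:35119043-35119292, plus strand, from RefSeq) is shown because it holds a short C/EBP core, TTGCG, and a TATA box, TATAAA, both in capitals.
Cebpa: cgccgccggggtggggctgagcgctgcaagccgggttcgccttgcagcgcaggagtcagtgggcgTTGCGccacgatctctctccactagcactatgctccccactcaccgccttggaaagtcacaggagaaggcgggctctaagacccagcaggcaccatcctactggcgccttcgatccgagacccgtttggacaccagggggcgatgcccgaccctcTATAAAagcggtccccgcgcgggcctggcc

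The TTGCG match begins at position -185 and TATAAA at position -30, counted from 0 at the start base. Of 32851 RefSeq windows searched on both strands, 17.4% held TTGCG and 13.6% held TATAAA. These windows also reach past the start, so they are longer than the region shown. Such a match describes letters and is not evidence of binding. RefSeq windows were matched for 5 of the 9 members, 7 windows in all.

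Cebpb had the highest level of any member in the spinal cord. It had 252 TPM (246 to 258) in marrow monocytes, 949 TPM (937 to 962) in cord monocytes and 639 TPM (629 to 648) in APCs. The reads behind these levels were 6717, 22578 and 16701. Both spinal cord libraries lay above bone marrow, and the APCs lay between the other libraries. The log2 fold change was 2.23 (98% interval 2.18 to 2.28) in cord against marrow monocytes, and 1.64 (1.59 to 1.69) in APCs against marrow monocytes. In APCs against cord monocytes it was -0.59 (-0.63 to -0.56), which is below 0 and within a 2-fold change. Among active genes of that comparison this change stood at the percentile 9.87, where 0 is the most negative. Cebpb is a gene of a single exon of 1504 bases on chromosome 2 (167688915 to 167690418, plus strand). An annotated gene on the opposite strand, Tmem189, shares 312 of these exonic bases. Tmem189 had 2091, 6513 and 6519 estimated reads in marrow monocytes, cord monocytes and APCs, and the strand setting of the counting was not given in the sources used here. Its part in the Cebpb values was not tested. The region before the Cebpb start (GRCm38.p6, chr2:167688665-167688914, plus strand, from RefSeq) is shown with 3 matches to TGACG, the core of a cyclic AMP response element on either strand, in capitals.
Cebpb: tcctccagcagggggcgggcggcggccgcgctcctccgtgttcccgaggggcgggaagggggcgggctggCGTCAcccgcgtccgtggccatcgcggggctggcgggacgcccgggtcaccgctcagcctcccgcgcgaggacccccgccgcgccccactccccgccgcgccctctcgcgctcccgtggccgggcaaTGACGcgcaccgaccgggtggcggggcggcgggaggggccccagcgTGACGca

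At least 1 TGACG was in 20.8% of all windows. The 3 matches lay at positions -180, -53 and -7.

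Cebpd (chromosome 16, 15887286 to 15891031, plus strand) moved opposite to Cebpb against marrow monocytes. Its levels were 26.2 TPM (25.1 to 27.4) in marrow monocytes, 8.97 TPM (8.28 to 9.71) in cord monocytes and 7.81 TPM (7.19 to 8.48) in APCs, from 1954, 603 and 569 reads. Bone marrow stood apart, and the intervals of both spinal cord libraries overlapped. On the log2 scale the change was -1.21 (98% interval -1.37 to -1.06) in cord monocytes and -1.45 (-1.61 to -1.30) in APCs, each against marrow monocytes. Spidr, on the opposite strand, shares 562 of the 3746 exonic bases of Cebpd and had 1453, 643 and 737 reads in the same order of libraries, and its part in the Cebpd values was not tested.

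Cebpe (chromosome 14, 54710360 to 54712174, minus strand) had 14.4 TPM (12.9 to 16.1) in marrow monocytes, 3.96 TPM (3.15 to 4.97) in cord monocytes and 1.40 TPM (0.977 to 2.02) in APCs. These levels rested on 302, 74 and 29 reads, and the intervals of the 3 libraries stayed apart. As log2 of the read ratio, the change was -1.54 (98% interval -1.98 to -1.12) in cord against marrow monocytes and -3.03 (-3.71 to -2.42) in APCs against marrow monocytes. In APCs against cord monocytes it was -1.49 (-2.25 to -0.78). This interval lay below 0 but reached inside a 2-fold change, so Cebpe was not called there. A plain 2-fold change would have called it lower. It stood at the percentile 1.06 of active genes in that comparison, the most negative place of any member.

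The sum of the 4 C/EBP members was 437 TPM in marrow monocytes, 1086 TPM in cord monocytes and 749 TPM in APCs. Cebpb held 57.8%, 87.4% and 85.3% of it, and Cebpa 32.9%, 11.4% and 13.5%. Cebpd went from 6.01% to 0.826% and 1.04%, and Cebpe from 3.30% to 0.365% and 0.187%. The ratio of Cebpb to Cebpa was 1.76 in marrow monocytes, 7.68 in cord monocytes and 6.33 in APCs. Spi1 exceeded Cebpb 2.31-fold in marrow monocytes, and the ratio of Spi1 to Cebpb was 0.472 in cord monocytes and 0.699 in APCs. These shares are ratios within a library and do not depend on the scaling between libraries.

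**Figure D2:**
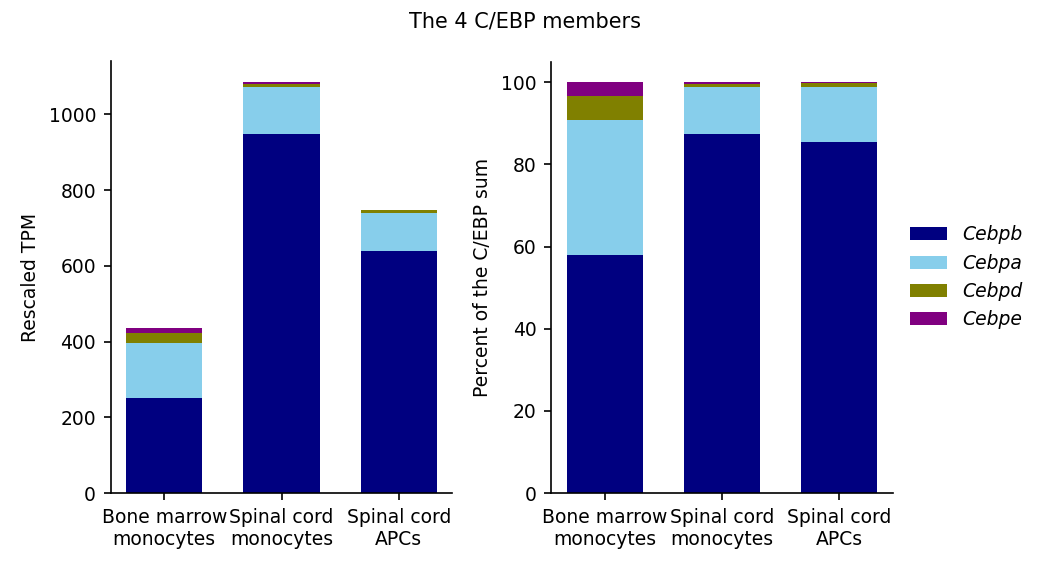
Rescaled TPM of the 4 C/EBP members stacked by library (left) and their percent of the C/EBP sum (right). The sum is 437, 1086 and 749 TPM in marrow monocytes, cord monocytes and APCs, and Cebpb takes 57.8%, 87.4% and 85.3% of it.

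Runx1 rose in the spinal cord together with a change in mean transcript length. It had 32.0 TPM (30.9 to 33.2) in marrow monocytes, 114 TPM (111 to 116) in cord monocytes and 109 TPM (106 to 111) in APCs, from 3011, 7120 and 6901 reads. The spinal cord libraries lay well above bone marrow, and their intervals overlapped at the ends. The log2 fold change from reads was 1.72 (98% interval 1.65 to 1.80) in cord monocytes and 1.52 (1.45 to 1.60) in APCs against marrow monocytes. Per effective length the same changes were 2.07 and 2.09. The mean length of the Runx1 transcripts was 4650 bases in marrow monocytes, 3499 in cord monocytes and 3294 in APCs. In the same order it was 2860, 2431 and 2730 bases for Gfi1 and 5967, 5829 and 5705 for Maf. The APC values were made on another transcript set, but those of the monocyte populations were not. In APCs against cord monocytes the log2 fold change was -0.20 from reads and 0.02 per length, so it had no settled direction.

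Runx1 lies on chromosome 16 (92601466 to 92826149, minus strand) and has 7 annotated transcripts of 336 to 5861 bases. The coding transcript of 5861 bases begins at a distal start and the one of 4738 bases at a proximal start, 128821 bases apart. Which transcripts made up the shift in mean length was not tested, since values per gene were used. RefSeq windows lie near both starts, and the start of the distal one lies 75 bases inside the 5861-base transcript. They are shown because the 3 RUNX motifs (TGNGGT, either strand) of the distal window fall after that RefSeq start (GRCm38.p6, chr16:92826031-92826060, minus strand) and the proximal window (chr16:92697330-92697579, minus strand) holds no RUNX motif. In the distal stretch the capitals mark RUNX motifs. In the proximal region they mark 2 CCAAT boxes and 1 PU.1 core, GAGGAA, each on either strand.
Runx1 distal: ggACCTCAtaaacaACCACAgaACCACAag
Runx1 proximal: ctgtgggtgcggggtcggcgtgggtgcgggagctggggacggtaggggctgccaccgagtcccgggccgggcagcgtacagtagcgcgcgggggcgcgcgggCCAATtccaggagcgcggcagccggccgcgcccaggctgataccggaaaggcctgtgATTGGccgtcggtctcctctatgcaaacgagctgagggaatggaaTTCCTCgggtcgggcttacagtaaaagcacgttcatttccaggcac

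RUNX motifs were in 45.8% of all windows, CCAAT in 37.4% and GAGGAA in 28.3%. The PU.1 core lay at position -46 of the proximal window.

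Myb (chromosome 10, 21124935 to 21160984, minus strand) had the largest fold change of the 9. It had 8.99 TPM (8.28 to 9.75) in marrow monocytes, 0.380 TPM (0.251 to 0.576) in cord monocytes and 0.417 TPM (0.285 to 0.611) in APCs. Reads numbered 582, 22 and 26. Bone marrow stood apart and the spinal cord libraries overlapped. The log2 fold change was -4.20 (98% interval -4.98 to -3.53) in cord monocytes and -4.12 (-4.84 to -3.50) in APCs against marrow monocytes. Between APCs and cord monocytes it was 0.08 (-0.88 to 1.05), an interval that spans 0 and reaches past a 2-fold rise. The 0.380 TPM in cord monocytes stood above the limit of 3 reads, 0.0518 TPM, so Myb was low but detected. The region before the Myb start (GRCm38.p6, chr10:21160985-21161234, minus strand, from RefSeq) is shown with its 1 match to the C/EBP core TTGCG, at position -214, in capitals.
Myb: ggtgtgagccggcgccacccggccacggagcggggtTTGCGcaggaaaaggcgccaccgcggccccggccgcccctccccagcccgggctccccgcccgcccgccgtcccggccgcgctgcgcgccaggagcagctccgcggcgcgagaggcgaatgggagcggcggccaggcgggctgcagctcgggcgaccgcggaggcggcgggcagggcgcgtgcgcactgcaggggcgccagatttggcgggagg

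Maf (chromosome 8, 115682942 to 115707794, minus strand) went the other way. It had 5.02 TPM (4.64 to 5.43) in marrow monocytes, 22.9 TPM (22.0 to 23.8) in cord monocytes and 24.1 TPM (23.2 to 25.0) in APCs. The spinal cord libraries overlapped and both stood above bone marrow. On the log2 scale the change was 2.49 (98% interval 2.34 to 2.64) in cord monocytes and 2.48 (2.34 to 2.64) in APCs against marrow monocytes, and -0.01 (-0.10 to 0.09) between the spinal cord libraries. Maf relative to Myb was 0.559 in marrow monocytes, 60.2 in cord monocytes and 57.6 in APCs.

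Gfi1 (chromosome 5, 107716657 to 107726036, minus strand) was the least abundant factor in marrow monocytes and did not reach 3 TPM in any library. Its levels were 0.648 TPM (0.468 to 0.897) in marrow monocytes, 2.94 TPM (2.47 to 3.51) in cord monocytes and 1.68 TPM (1.36 to 2.08) in APCs, from 36, 123 and 87 reads. No pair of intervals overlapped. The log2 fold change of cord against marrow monocytes was 2.24 (98% interval 1.63 to 2.89), beyond a 2-fold change, but the gene was not active and so not called. With no threshold on TPM, or with Gm-numbered, mitochondrial and ribosomal protein genes left out, which lifted its TPM over 3, Gfi1 was called higher.

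**Figure D3:**
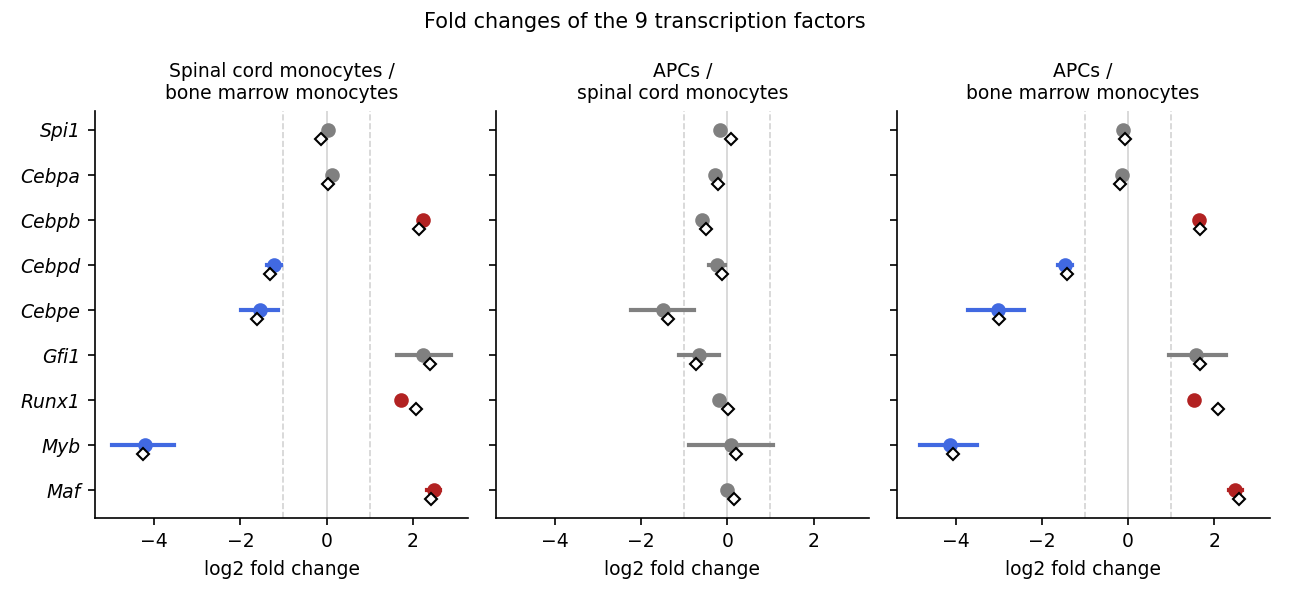
Log2 fold change of each transcription factor in the 3 comparisons, from reads with 98% intervals (filled points and bars, red where called higher, blue where called lower, gray where not called) and from reads divided by effective length (open diamonds). Dashed lines mark a 2-fold change. No member is called in the middle panel, and Runx1 is the member whose open diamond lies farthest from its point in the outer panels.

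Markers of other cell types moved between the libraries. The 12 T cell markers summed to 0.835 TPM in marrow monocytes, 77.0 TPM in cord monocytes and 123 TPM in APCs, and 0, 10 and 11 of them were over 3 TPM. Cd3e, a chain of the T cell receptor complex, had 0.0389, 6.74 and 11.3 TPM. T cells also express Runx1, Gfi1 and Maf, and their part in the levels of these genes was not tested. The sort for CD11b and CD64 selects against T cells. The 11 microglia markers summed to 228, 518 and 1031 TPM, and Sall1, a defining factor of microglia, had 0, 3.10 and 13.5 TPM. Microglia express Spi1 and Maf, and their part was not tested either. In the spinal cord the gate took cells with high CD45, which is meant to leave microglia out. The study saw slightly more Tmem119 and P2ry12 in its APCs and could not exclude a small number of microglia there. From cord monocytes to APCs, the T cell sum went from 77.0 to 123 TPM and the microglia sum from 518 to 1031 TPM. Runx1 went from 114 to 109 TPM, Maf from 22.9 to 24.1 TPM, Gfi1 from 2.94 to 1.68 TPM and Spi1 from 448 to 446 TPM. The part of either cell type in these values was not tested.

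The 10 neutrophil markers summed to 7860 TPM in marrow monocytes, 1336 TPM in cord monocytes and 1439 TPM in APCs, with 6 called lower and 2 higher in cord against marrow monocytes. Most of the marrow sum came from S100a8 and S100a9, which monocytes also express, at 4471, 678 and 498 TPM and 2244, 345 and 441 TPM in the same order of libraries. The 2 called higher were Cxcr2, at 2.56, 9.10 and 6.75 TPM, and Retnlg, at 1.77, 16.7 and 57.9 TPM. Ly6g, the antigen used to exclude neutrophils, had 2.57, 1.71 and 1.64 TPM. The part of neutrophil RNA in the level of Cebpe was not tested. The 8 stem and progenitor markers summed to 75.7, 1017 and 694 TPM, of which Ly6a, which interferon also induces, made up 958 TPM in cord monocytes. Kit, a defining receptor of early progenitors, had 0.208 TPM in marrow monocytes, where Myb had 8.99 TPM. Of the 5 active stem and progenitor markers in cord against marrow monocytes, 3 were called higher and 1 lower. The latter was Flt3, a receptor of progenitors and dendritic cells, at 37.8, 3.65 and 6.65 TPM. Myb was called lower there as well, and so were 6 of 8 active primary granule genes. The part of progenitor RNA in the level of Myb was not tested. The 7 monocyte markers summed to 10714, 9365 and 3754 TPM, with 2 called higher and 1 lower in cord against marrow monocytes. Csf1r and Fcgr1 were called higher, at 374, 676 and 1134 TPM and 81.3, 274 and 138 TPM, while Ccr2 was called lower, and Itgam was not called at 485, 533 and 510 TPM. Ly6c2, which encodes the antigen of the Ly6C gates, had 5205, 3602 and 1067 TPM.

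The CNS-associated macrophage list summed to 15.7, 36.8 and 51.1 TPM in marrow monocytes, cord monocytes and APCs, and the conventional dendritic cell list to 70.5, 28.9 and 44.5 TPM. The plasmacytoid dendritic cell list summed to 97.9, 378 and 309 TPM, of which the interferon-induced Bst2 made up 338 TPM in cord monocytes. Erythroid genes, almost all hemoglobin chains, summed to 1.94, 148 and 50.6 TPM. The B and plasma cell list summed to 10.3, 4.92 and 85.2 TPM, of which Ebf1 alone made up 81.3 TPM in APCs, while Pax5 stayed under 0.1 TPM. The NK cell list summed to 0.0671, 3.93 and 8.16 TPM, and the eosinophil, basophil and mast cell list to 4.09, 3.78 and 9.50 TPM. The endothelial list summed to 85.3, 160 and 84.9 TPM, with 3 genes called higher in cord against marrow monocytes. The neural and glial list summed to 75.5, 58.0 and 54.9 TPM, and 1 of its genes was over 3 TPM in marrow monocytes. Of its 4 active genes in cord against marrow monocytes, 3 were called higher and 1 lower.

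**Figure D4:**
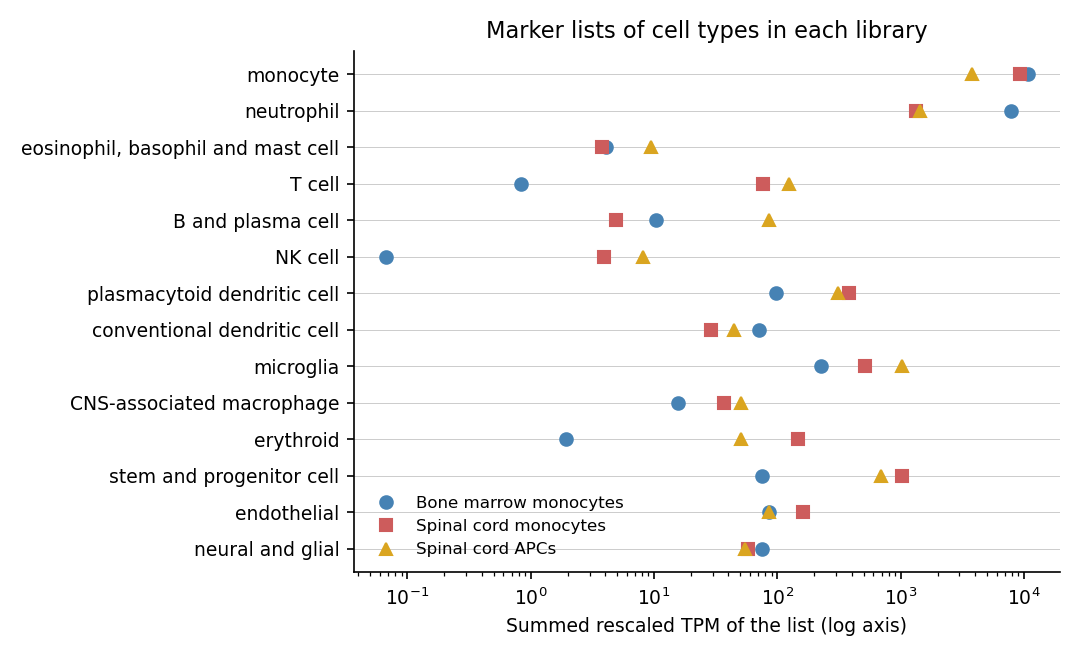
Summed rescaled TPM (log axis) of each cell type marker list in marrow monocytes (circles), cord monocytes (squares) and APCs (triangles). The T cell list goes from 0.835 to 77.0 and 123 TPM and the microglia list from 228 to 518 and 1031 TPM, while the neutrophil list is at 7860 TPM in bone marrow and at 1336 and 1439 TPM in the spinal cord.

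Among 17 family relatives of the factors, 11 were active in cord against marrow monocytes, of which 6 were called higher and 1 lower, with a median log2 fold change of 1.72 beside -0.15 over all active genes. The largest fold change was that of Maff. Maff, a small Maf protein without an activation domain, had 0.919 TPM in marrow monocytes, 214 TPM in cord monocytes and 136 TPM in APCs. Mafk was also called higher, whereas Mafg was not called, at 0.07 as log2 from reads and -0.11 per length.

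Of the Runx family, Runx2 had 3.41, 14.8 and 18.5 TPM and Runx3 13.5, 74.9 and 63.7 TPM in marrow monocytes, cord monocytes and APCs. Both were called higher in the spinal cord, as Runx1 was. Cbfb, which encodes the partner subunit shared by the Runx factors, had 149, 72.6 and 68.4 TPM and was not called, at a log2 change of -0.72. Runx1 stayed the most abundant of the 3 Runx genes in each library.

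Mybl2, a cell cycle relative of Myb, was the relative called lower, at 16.2 TPM in marrow monocytes, 3.83 TPM in cord monocytes and 2.11 TPM in APCs. From reads the log2 change in the cord was -3.02, and per length it was -1.82. Ddit3, the stress-induced C/EBP member CHOP, was called higher with 13.6, 47.2 and 37.0 TPM. Cebpg had 49.8, 24.8 and 34.0 TPM and Cebpz 39.1, 36.2 and 30.1 TPM, and neither was called. Spib, Spic, Gfi1b, Mybl1, Mafa and Nrl were not active in any comparison, with Spib highest among them at 2.24 TPM in APCs. Of the 11 relatives active between APCs and cord monocytes, 0 were called, at a median of -0.26 beside -0.04 over all active genes.

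Of 48 other fate factors, 36 were active in cord against marrow monocytes, with 19 called higher and 3 lower and a median log2 fold change of 1.18. Nr4a3, an orphan nuclear receptor gene induced by activation, went from 0.229 to 96.7 TPM, Egr2 from 0.519 to 169 TPM and Ets2 from 2.11 to 309 TPM. Id2, an inhibitor of E proteins, and Nfil3 were among the most abundant at 934 and 448 TPM in cord monocytes. Lyl1 and Ikzf1, both called lower, were the factors nearest in pattern to Cebpd. Between APCs and cord monocytes, Irf4 and Zbtb46, factors of dendritic cells, were called higher at log2 fold changes of 1.24 and 2.78. Irf4 went from 5.63 to 10.8 TPM. Zbtb46 went from 0.496 to 3.37 TPM, so it was active only through APCs, just over 3 TPM. The study described Zbtb46 as very low in its APCs. Bach1 and Rara were called lower at -1.29 and -1.12, from 89.1 to 36.7 TPM and from 58.1 to 26.3 TPM. The 9 members held none of the calls of that comparison.

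The factor nearest in pattern to each active member was taken from the 48 factors of these lists over 3 TPM in some library, by the distance between centered log2(TPM + 1) values. With 3 libraries such likeness is a description only. Mitf lay nearest to Runx1, at a distance of 0.051, with 12.1, 44.1 and 40.4 TPM, and 8 of 10306 active genes lay as close. Pparg at 0.109 and Myc at 0.167 lay nearest to Maf, Ddit3 at 0.172 and Bach2 at 0.232 to Cebpb, and Lyl1 at 0.150 and Ikzf1 at 0.255 to Cebpd. Cebpz lay nearest to both Cebpa, where 279 active genes lay as close, and Spi1, where 1410 did, followed by Irf8 for Cebpa and Meis1 for Spi1. Mybl2 lay nearest to Cebpe, at 0.289, and to Myb, at 0.734. For Myb 371 active genes lay as close, and for Cebpe 48.

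Genes tied to these factors by their known biology were followed from the same libraries. A gene over 3 TPM in only 1 library of a comparison counted as active there, which favors a call toward that library. All 20 receptors and enzymes controlled by PU.1 and C/EBPα were active, with 6 called higher and 1 lower in cord against marrow monocytes and a median log2 fold change of 0.54. Over all active genes 13.8% were called higher and 10.7% lower, at a median of -0.15. Cd14, the lipopolysaccharide co-receptor, had 92.5, 2447 and 1378 TPM. Il6ra was the gene called lower, with 209, 57.5 and 43.1 TPM. Lyz2, which encodes lysozyme, was the most abundant of the list at 34515, 14312 and 10443 TPM. It was not called in cord against marrow monocytes, at -0.95 as log2. Between APCs and cord monocytes 0 of 20 were called.

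Most granule genes were called lower in the spinal cord. Of 8 active primary granule genes, 6 were called lower and 0 higher, with a median log2 fold change of -3.21. Mpo, the myeloperoxidase gene, had 69.6 TPM in marrow monocytes, 1.85 TPM in cord monocytes and 1.27 TPM in APCs. Elane, which encodes neutrophil elastase, had 172, 3.50 and 0.849 TPM and was called lower again in APCs. Of 10 active secondary granule genes controlled by C/EBPε, 9 were called lower and 1 higher in the spinal cord, with a median of -2.40. Chil3, the most abundant, had 24588, 9189 and 3902 TPM. From cord monocytes to APCs, 2 of the 10 active secondary granule genes were called higher and 2 lower, with a median of -0.25. Ltf, the lactoferrin gene, went from 9.76 to 34.1 TPM and Ngp from 24.3 to 157 TPM, both called higher, while Cd177 and Chil3 were called lower and Cebpe went from 3.96 to 1.40 TPM. Camp, Ltf, Ngp and Mmp8 are also in the neutrophil marker list.

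**Figure D5:**
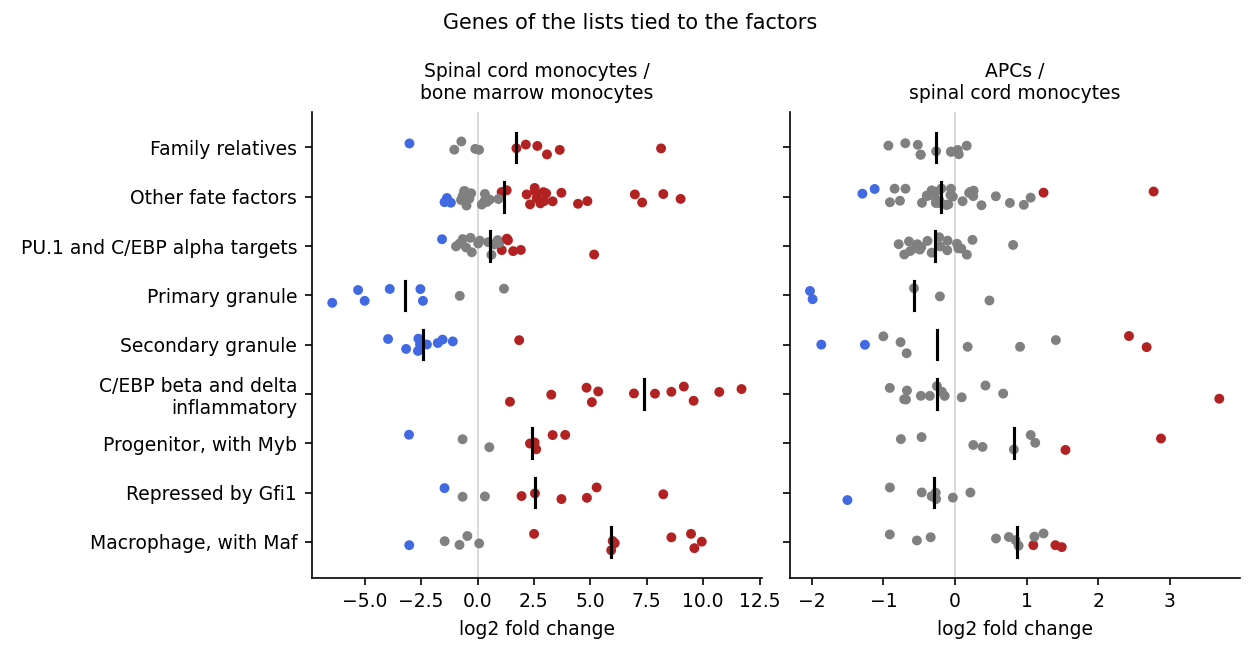
Log2 fold change of each active gene of the lists tied to the factors, in cord against marrow monocytes (left) and in APCs against cord monocytes (right), red where called higher, blue where called lower and gray where not called, with a black bar at the list's median. All 12 active C/EBPβ and C/EBPδ inflammatory genes are red on the left, and most granule genes are blue.

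All 12 active inflammatory genes controlled by C/EBPβ and C/EBPδ were called higher in cord against marrow monocytes, beside 13.8% of all active genes. Of the 14 listed, 6 were over 3 TPM in marrow monocytes and 12 in cord monocytes. Part of the 12 thus counted as active only through the library where they were high, which favors a call of higher. Their median log2 fold change was 7.40, or 6.70 with Il10, which had 0 reads in marrow monocytes, set against a floor of 3 reads. Il1b had 6.37 TPM in marrow monocytes, 3821 TPM in cord monocytes and 2899 TPM in APCs. Arg1, the arginase gene, had 2.27, 3097 and 4207 TPM, and Nos2, the inducible nitric oxide synthase gene, 0.0952, 276 and 254 TPM. Of the factors that the list is named for, Cebpb was higher and Cebpd lower. Between APCs and cord monocytes 1 of 13 active genes was called, Il12b, which encodes a subunit shared by IL-12 and IL-23 and went from 0.952 to 12.8 TPM.

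Of the 15 progenitor genes associated with Myb, 8 were active in cord against marrow monocytes. Among these 5 were called higher, opposite to Myb, and 1 lower, beside 13.8% and 10.7% of all active genes. Their median log2 fold change was 2.43. Sox4, Adgrg1 and Egfl7, all called higher, were over 3 TPM in cord monocytes only, which favors a call of higher. Meis1, not called, was over 3 TPM in marrow monocytes only. The gene called lower was Flt3, a cytokine receptor of progenitors and dendritic cells, at 37.8, 3.65 and 6.65 TPM. Myc had 6.77, 31.2 and 36.9 TPM, and Cd34 had 3.03, 12.5 and 35.7 TPM. In APCs against cord monocytes, Kit and Adgrg1 were called higher, at 1.70 to 6.92 TPM and 6.41 to 22.7 TPM, where Myb stayed under 0.5 TPM in both libraries.

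Of the 10 genes that Gfi1 represses, 9 were active in cord against marrow monocytes. Among these 6 were called higher and 1 lower, with a median log2 fold change of 2.55. Id2, Egr1, Egr2, Csf1, Cdkn1a and Id1 were the 6 called higher. Irf8, a factor of monocyte fate, had 222, 227 and 176 TPM and was not called. Id1 had 41.5, 131 and 46.2 TPM and was called lower from cord monocytes to APCs.

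The 19 macrophage genes associated with Maf held some of the most abundant genes of the spinal cord libraries and others near 0. Of 13 active genes, 8 were called higher and 1 lower in cord against marrow monocytes, with a median log2 fold change of 5.92. Of the 19, 5 were over 3 TPM in marrow monocytes and 12 in cord monocytes. C1qa, a subunit of complement C1q, had 0.778, 650 and 1830 TPM, and C1qa, C1qc and Mrc1 were called higher again in APCs, where the log2 fold change of Maf was -0.01. F13a1, the coagulation factor XIII gene, was called lower, with 2424, 244 and 165 TPM. Vsig4 was at 0 reads in all 3 libraries, and Lyve1, Timd4, Folr2 and Cd163 stayed under 1 TPM. Microglia express C1qa, C1qb and C1qc as well, and the part of microglia in these levels was not tested.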

How the data were processed

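Per the labels and the study's methods, each population gave 1 pooled poly(A) library. Salmon 0.14.1 with GENCODE vM22 (mm10) was run by the authors, who summed transcripts per gene and deposited TPM, estimated counts of reads, and lengths. The APC values list 22242 genes and those of each monocyte population 54432, so another transcript set was used for APCs. The 22238 common genes held 84.9% and 85.3% of the TPM of bone marrow and cord monocytes.

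Estimated counts were rounded, with 32115707, 26116588 and 28209327 in marrow monocytes, cord monocytes and APCs, then divided by size factors (median of ratios). The log2 ratio was the median of a gamma posterior of reads plus 1 with percentiles 1 and 99, after the GFold definition in the study's methods. The study's threshold of 2 on log2 TPM was read as TPM over 3. The floor is 3 reads. The procedure was tested on data simulated with counting error only, which cannot show how it fares with spread between libraries. PCR copies are not independent molecules.

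The members and gene lists were chosen with earlier results of these data known. All members, family relatives and markers could be named, and of each other list the 3 most abundant and the 3 most changed active genes per comparison, with the 2 factors nearest in pattern to each active member. Egr1, Rara, Timd4, Folr2 and Vsig4 were named after their values were seen. Results on some genes of the lists are not reported here. Positions come from GENCODE M21 on GRCm38, which holds 99.0% of the common identifiers, and promoter windows from RefSeq. Alternatives are given with their effect in the closing section. The tools were edgeR 4.0.16 in R 4.3.3 for TMM factors only, and scipy 1.17.1, pandas 2.3.3, numpy 2.4.6 and matplotlib 3.10.9 in Python 3.11.15.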

Additional observations from a re-analysis of the deposited data

Results flagged for a closer look

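Some annotated RNAs beside the factors are listed for the monocyte libraries alone and entered no comparison. Each is given because its reads exceeded the limit of 3 reads that a count of 0 allows. Gm45091, antisense to Cebpa, had 2 reads in marrow monocytes and 10 in cord monocytes. A530013C23Rik, a noncoding RNA next to Cebpb, had 15.1 and 31.2 estimated reads. Gm26626, antisense to Runx1, had 8 and 16 reads. Gm26577, antisense to Myb, had 13 and 1 reads, in the direction of Myb. Without the strand setting of the counting, antisense reads cannot be told apart from those of the gene.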

How the results depend on the processing

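Counts of members called were recomputed under 14 alternatives in cord against marrow monocytes and 13 in each other comparison. Scaling by TMM factors, total reads, effective length or TPM kept 3 members higher and 3 lower against bone marrow. An assumed coefficient of variation (CV) between libraries of 0.2 left 1 member lower in cord against marrow monocytes and 1 higher in APCs against marrow monocytes. A CV of 0.4 left 0 higher and 1 lower in the former and 0 higher in the latter. These alternatives widen the interval by construction and apply the spread in full to each pooled library. In APCs against cord monocytes, 1 member, Cebpe, was lower by a plain 2-fold change of reads, or of TPM with a pseudocount of 1 or 0.1. An outer percentile of 0.1 in place of 1 ended the call of Cebpe in cord against marrow monocytes.

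No member that was called changed direction. Of 360 recomputed fold changes of members, 16 lost the call and 5 gained one. Another 11, without a call, changed direction by more than the width of their interval. These 11 were of Spi1 and Cebpa in cord against marrow monocytes and of Spi1 and Runx1 between the spinal cord libraries. The other 328 kept their call, with the same direction or a shift within that width. Maf between the spinal cord libraries was among the 328, at -0.01 in the main setting and 0.15 per effective length. Total reads shifted the median of active genes by -0.18 in cord against marrow monocytes, and TPM by -0.26 to -0.29. Of 334 calls of genes in the lists, counted once per list and comparison, 0 changed direction under 4 other scalings. Calls lie beyond a 2-fold change and the median shifts above were smaller, so a change of direction was unlikely from the start. Calls could be lost more readily. Among other fate factors in APCs against cord monocytes, 4 were called. Total reads ended 1 of these calls, effective length 2, the TPM ratio 1 and TMM factors 0. The 7 calls of family relatives in cord against marrow monocytes were all kept. TPM as deposited put the same numbers of members over 3 TPM and gave the same C/EBP shares. No paired analysis was possible because each population is 1 library. Cebpe with 29 reads in APCs and Myb with 22 in cord monocytes limit what depth can show.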
